A study of Mus musculus with 15 samples.

Results

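A list of 8 genes of the plasminogen activator system and of the neighbouring tissue factor pathway were followed in ligated and non-ligated mouse carotid arteries: Plau, Plaur, Plat, Serpine2, Serpinb2, F3, Tfpi and Tfpi2. The list was drawn up by name, with earlier results of these data known. Its genes were looked up by gene symbol or earlier symbol among probe sets annotated to exactly 1 gene. Of the 8 listed genes 7 were found, among 22180 genes measured in this way. Serpine2 (protease nexin 1, an inhibitor of thrombin and of both plasminogen activators) was not found and was not analysed here. Each of the 7 was read by 1 probe set. F3 and Tfpi act at the start of coagulation, and Plau, Plaur, Plat and Serpinb2 are the members that act on plasminogen activation itself.

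The arteries came from female C57Bl/6J mice 21 to 22 weeks old, in 4 groups 5 days after the left common carotid artery was tied off to induce neointimal growth. Wildtype mice gave 4 arrays of non-ligated and 4 of ligated arteries, and Has3-deficient mice gave 4 of non-ligated and 3 of ligated arteries, the latter numbered 3, 5 and 6. Has3 is a synthase of hyaluronan, a matrix polysaccharide; the labels name neither the allele nor the cells in which it is lost. They also do not say whether arrays come from separate animals or whether a non-ligated artery is the other side of an operated mouse, so the spread behind each p-value is that between arrays and may be technical. Whole-artery RNA was measured, which mixes muscle, endothelium, adventitia and any blood cells present.

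Urokinase (Plau) and tissue plasminogen activator (Plat) are the proteases that cut plasminogen into plasmin, which dissolves fibrin and helps cells to move through matrix. Urokinase works while held on the cell surface by its receptor Plaur, and its action is limited by serpins, among them plasminogen activator inhibitor 2 (Serpinb2). Tissue factor (F3) is the membrane protein that starts coagulation with factor VII; Tfpi blocks tissue factor and factor X, and Tfpi2 is a related Kunitz inhibitor that acts on plasmin and other proteases in the matrix.

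Promoter sequence is shown for the members that changed clearly with ligation and had an AP-1 motif, the motif chosen for display. AP-1 factors are known to be induced in injured arteries, and their part in these changes was not tested. RefSeq promoter windows of the GRCm38.p6 assembly, which run from 250 bases before to 50 after a transcript start, were given for 6 of the 8 genes in 10 windows, none of them for Plau or Plat. The AP-1 motif (TGANTCA, either strand) was present in windows of 4 of these 6 genes, Plaur, Serpinb2, F3 and Tfpi2, and in 8.97% of 27025 genes with windows (7.81% of 32851 windows). The 160 bases before the start are printed 5′ to 3′ on the gene's strand, with AP-1 matches in capitals. They lie at chr7:24462323-24462482 (plus strand), chr1:107511263-107511422 (plus), chr3:121723377-121723536 (plus) and chr6:3968376-3968535 (minus).
Plaur: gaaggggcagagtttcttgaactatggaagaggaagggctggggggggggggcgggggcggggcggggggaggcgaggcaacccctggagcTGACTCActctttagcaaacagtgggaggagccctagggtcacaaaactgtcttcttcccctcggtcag
Serpinb2: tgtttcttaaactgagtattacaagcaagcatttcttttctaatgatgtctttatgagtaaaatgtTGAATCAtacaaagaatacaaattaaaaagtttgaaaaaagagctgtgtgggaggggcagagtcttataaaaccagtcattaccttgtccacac
F3: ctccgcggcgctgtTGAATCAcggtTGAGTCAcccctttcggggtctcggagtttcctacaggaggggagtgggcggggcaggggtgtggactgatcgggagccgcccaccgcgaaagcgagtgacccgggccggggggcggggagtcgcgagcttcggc
Tfpi2: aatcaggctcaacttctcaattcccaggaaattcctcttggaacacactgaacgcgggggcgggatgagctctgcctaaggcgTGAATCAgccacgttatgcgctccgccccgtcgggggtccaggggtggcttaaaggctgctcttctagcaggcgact

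The first base of the match stood 69 bases before the start in Plaur, 94 in Serpinb2, and 77 in 1 of the 3 windows of Tfpi2, while F3 held a pair of matches, 146 and 135 bases before the start. With ligation Plaur, Serpinb2 and Tfpi2 rose and F3 fell, so the motif was found in promoters of genes that went either way. Serpinb2 had a TATA box (TATAAA) 29 bases before the start in the printed window and 116 in its other window. These letters were also found, on the opposite strand, in F3 and in 1 window of Tfpi. In all, 3 of the 6 genes held them, against 15.7% of genes. The Sp1 motif (GGGCGG) was present in 5 of the 6 genes (38.2% of all genes had it), 3 times each in Plaur and F3. It was absent from both windows of Serpinb2, which overlap each other. No window of the 6 genes held the CRE motif (TGACGTCA, 2.03% of genes) or the NF-kB pattern of 10 letters that was searched (1.89% of genes). That pattern is a narrow form of the NF-kB motif, and other spellings were not searched. The search therefore cannot show that these promoters, that of F3 included, lack NF-kB sites. A match describes letters in these windows and shows no binding.

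Values are log2 units relative to each probe set's own median over the 15 arrays, so a value of 0 is the middle array of that gene and levels of different genes cannot be compared. For the same reason, whether the markers of artery cells were present at all could not be read from the table. The Has3 probe set did not separate the genotypes (Has3-deficient minus wildtype 0.09 ± 0.14 (SE) in non-ligated and -0.20 ± 0.16 in ligated arteries), so the genotype follows the labels. A list of 8 neuron and chromaffin markers, 7 of them measured, was high on 3 arrays, with means of 2.72 in wildtype non-ligated array 2 and of 4.37 and 2.10 in Has3-deficient non-ligated arrays 3 and 4. Has3-deficient non-ligated array 1 followed at 1.68, and the other 11 arrays were at 0.55 or below. Without the 3 highest arrays Plau, Plaur, Serpinb2, F3 and Tfpi2 passed with ligation in both genotypes as they did with them, as did Tfpi in Has3-deficient arteries, and the effect on Plat and on Tfpi in wildtype is given with their values.

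Transcripts of urokinase, its receptor, plasminogen activator inhibitor 2 and Tfpi2 rose in ligated wildtype arteries, and that of tissue factor fell. By limma with Benjamini-Hochberg adjustment over all genes, at an adjusted p under 0.05, 4 of the 7 members rose and 1 fell; over all genes 13.2% rose and 14.6% fell. The arrays of the 2 groups did not overlap for 5 of 7 members, against 30.0% of all genes. In Has3-deficient arteries 6 members rose and 1 fell, where 10.2% of all genes rose and 8.08% fell, and the arrays of all 7 members did not overlap, against 26.3% of all genes. The members' median change was 1.52 log2 units for wildtype and 1.46 for Has3-deficient arteries, beside medians of 0.01 and -0.03 over all genes. Since the list was chosen with earlier results known, the values over all genes are given as a description and not as a test. In whole tissue a higher share of cells that express a gene and more RNA per cell cannot be told apart.

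**Figure D1:**
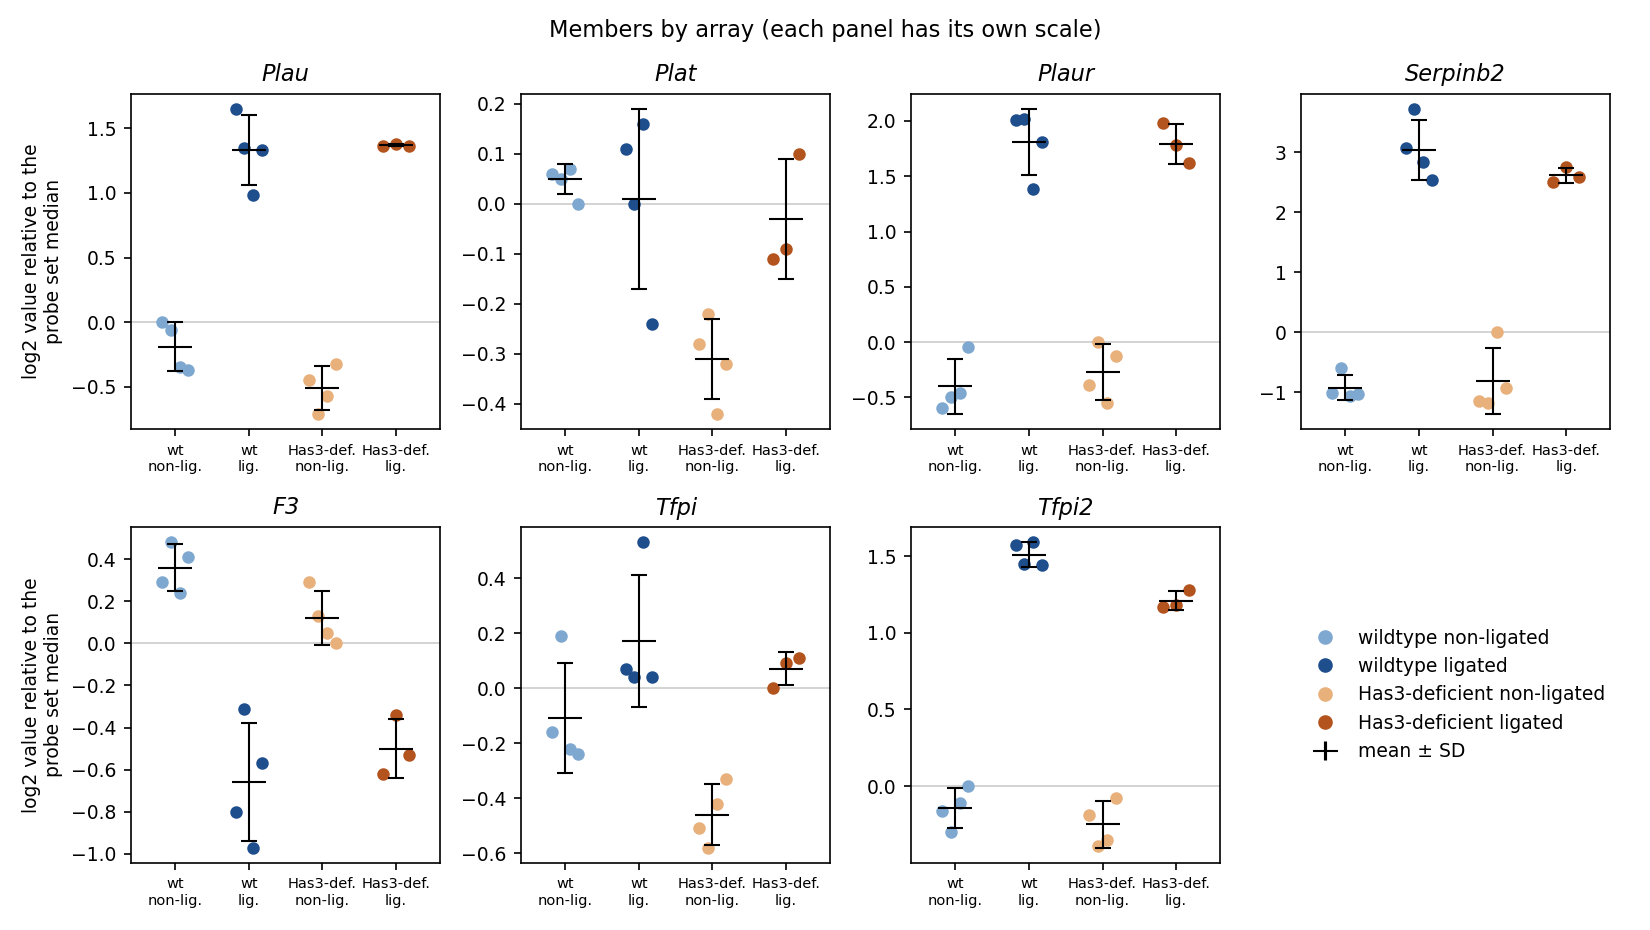
Log2 value of each member on each of the 15 arrays relative to the probe set's median (vertical axis, own scale in each panel), by group, with the group mean and SD. Plau, Plaur, Serpinb2 and Tfpi2 stand apart in ligated arteries of both genotypes, F3 runs the other way, and Plat lies between -0.42 and 0.16 on every array.

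Among the activators, Plau was at 0.00, -0.06, -0.35 and -0.37 in wildtype non-ligated arrays and at 1.65, 1.35, 0.98 and 1.33 in ligated ones. In Has3-deficient arteries it was at -0.45, -0.71, -0.57 and -0.32 without ligation and at 1.36, 1.38 and 1.36 with it. Every ligated array was thus higher than every non-ligated array in both genotypes. Plau rose by 1.52 ± 0.13 log2 units (± SE, 2.87-fold, adjusted p = 8.82e-07) in wildtype and by 1.88 ± 0.14 (3.68-fold, adjusted p = 3.4e-07) in Has3-deficient ones by limma. From lowest to highest the group means were -0.51 ± 0.17 (SD, n = 4) in Has3-deficient non-ligated, -0.19 ± 0.19 in wildtype non-ligated, 1.33 ± 0.27 in wildtype ligated and 1.37 ± 0.01 (n = 3) in Has3-deficient ligated arteries. The 2 ligated groups do not differ beyond their spread, and the arrays of the 2 non-ligated groups overlap.

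Plat, the activator that endothelium is known to release, moved little. It was at 0.06, 0.05, 0.07 and 0.00 in wildtype non-ligated, and at 0.11, 0.00, 0.16 and -0.24 in wildtype ligated arrays. These overlap, and the change was -0.04 ± 0.08 (95% interval -0.22 to 0.14, adjusted p = 0.798 by limma). In Has3-deficient arteries it was at -0.28, -0.22, -0.42 and -0.32 without ligation and at -0.11, -0.09 and 0.10 with it. Here all ligated arrays were higher, and Plat rose by 0.28 ± 0.09 (1.21-fold, adjusted p = 0.0425 by limma). This call rests on most of the arrays: it was lost, at changes of 0.21 to 0.32 and adjusted p of 0.0605 to 0.192, when any 1 of Has3-deficient non-ligated arrays 1, 3 and 4 or ligated arrays 3, 5 and 6 was left out, and kept only without non-ligated array 2. The call was also lost with array weights (0.26, adjusted p = 0.0506), with only the groups compared in the fit (0.28, adjusted p = 0.0654) and without the 3 arrays high in neuronal markers (0.22, adjusted p = 0.21). The mean of 6 fibroblast markers moved with Plat here, from between -0.21 and -0.06 in non-ligated to between 0.03 and 0.12 in ligated Has3-deficient arrays, with 3 markers higher and 2 lower; in wildtype its ranges overlapped (-0.02 to 0.14 and -0.01 to 0.15). Its part in the change of Plat was not tested.

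Plaur, which encodes the urokinase receptor, was at -0.60, -0.50, -0.46 and -0.04 in wildtype non-ligated and at 2.01, 2.02, 1.38 and 1.81 in wildtype ligated arrays. In Has3-deficient arteries the values were -0.39, 0.00, -0.55 and -0.13 without and 1.98, 1.78 and 1.62 with ligation. The lowest ligated array of either genotype was above every non-ligated one. The rise was 2.20 ± 0.16 log2 units (4.61-fold, adjusted p = 2.73e-07) in wildtype and 2.06 ± 0.18 (4.17-fold, adjusted p = 1.42e-06) in Has3-deficient arteries by limma. Both ligated means (1.81 ± 0.30, SD, n = 4, and 1.79 ± 0.18, n = 3) lie within each other's spread, and so do the non-ligated ones (-0.40 ± 0.25 and -0.27 ± 0.25).

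Serpinb2 had the largest change of the members. Plasminogen activator inhibitor 2, its product, inhibits urokinase and is known from stimulated macrophages. Wildtype non-ligated arrays were at -1.01, -0.60, -1.06 and -1.02 and ligated ones at 3.06, 3.72, 2.84 and 2.54. Has3-deficient arrays were at -1.14, -1.18, 0.00 and -0.93 without ligation and at 2.50, 2.75 and 2.59 with it. No ligated array came near a non-ligated one, and the highest non-ligated value, 0.00, was that of Has3-deficient array 3, which was also the highest in neuronal markers. The rise of 3.97 ± 0.26 log2 units in wildtype (15.6-fold, adjusted p = 8.15e-08 by limma) ranked 22 from the top of 22180 genes. In Has3-deficient arteries the rise was 3.42 ± 0.28 (10.7-fold, adjusted p = 9.13e-07 by limma), rank 42, and 3.69 without non-ligated array 3. These values are of the probe set annotated to Serpinb2 alone. A probe set annotated to both Serpinb10 and Serpinb2 moved less, from a mean of 0.01 to 0.33 in wildtype and from -0.24 to 0.15 in Has3-deficient arteries.

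Tissue factor was the member that fell. F3 was at 0.29, 0.48, 0.24 and 0.41 in wildtype non-ligated and at -0.80, -0.31, -0.97 and -0.57 in wildtype ligated arrays. Has3-deficient arteries had 0.29, 0.13, 0.05 and 0.00 without and -0.62, -0.34 and -0.53 with ligation. All ligated arrays were below all non-ligated ones. F3 fell by 1.02 ± 0.12 log2 units in wildtype (2.03-fold lower, adjusted p = 2e-05) and by 0.61 ± 0.13 in Has3-deficient arteries (1.53-fold lower, adjusted p = 0.00422, both by limma). The order of the means was wildtype ligated (-0.66 ± 0.28, SD, n = 4), Has3-deficient ligated (-0.50 ± 0.14, n = 3), Has3-deficient non-ligated (0.12 ± 0.13) and wildtype non-ligated (0.36 ± 0.11), and within each artery state the arrays of the genotypes overlapped.

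Tfpi and the related inhibitor Tfpi2 differed in size of change. Tfpi was at -0.16, 0.19, -0.22 and -0.24 in wildtype non-ligated and at 0.07, 0.04, 0.53 and 0.04 in wildtype ligated arrays. These overlap through non-ligated array 2, and the change of 0.28 ± 0.12 did not pass (adjusted p = 0.0944 by limma). Without that array it was 0.38 (adjusted p = 0.0197), and without the 3 arrays high in neuronal markers also 0.38 (adjusted p = 0.0192, both by limma). Over all omissions of 1 array the change ran from 0.16 to 0.38, with adjusted p from 0.0197 to 0.28 by limma. Ligated array 3, at 0.53, lay well above the other wildtype ligated arrays. In Has3-deficient arteries Tfpi was at -0.51, -0.58, -0.42 and -0.33 without ligation and at 0.00, 0.09 and 0.11 with it. It rose there by 0.53 ± 0.13 log2 units (1.44-fold, adjusted p = 0.00856 by limma).

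Among members that changed by over 1 log2 unit, Tfpi2 had the smallest standard errors, 0.08 and 0.09, which rest on the spread within all 4 groups. It was at -0.16, -0.30, -0.11 and 0.00 in wildtype non-ligated and at 1.57, 1.45, 1.59 and 1.44 in wildtype ligated arrays. Has3-deficient arrays were at -0.19, -0.39, -0.35 and -0.08 without and at 1.17, 1.18 and 1.28 with ligation. Ligated and non-ligated arrays were far apart, and among ligated arrays all 3 Has3-deficient ones were below all 4 wildtype ones. The rise was 1.65 ± 0.08 in wildtype (3.15-fold, adjusted p = 7.65e-09) and 1.46 ± 0.09 in Has3-deficient arteries (2.75-fold, adjusted p = 5.06e-08), both by limma.

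**Figure D2:**
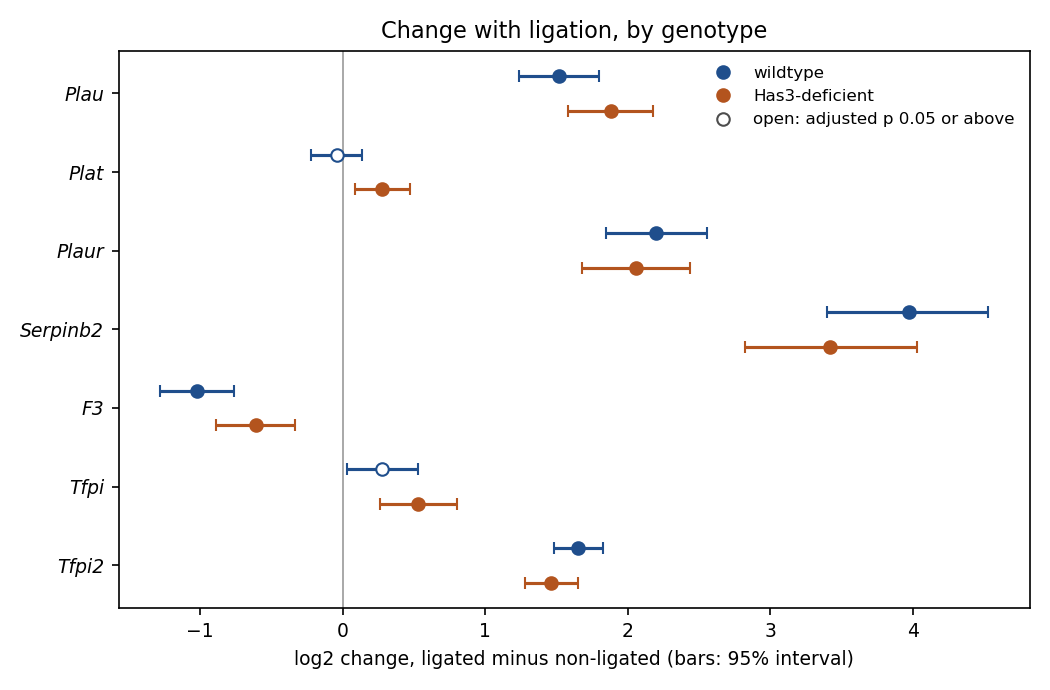
Log2 change with ligation (ligated minus non-ligated, horizontal axis) of each member in wildtype and Has3-deficient arteries, with 95% intervals from limma; filled points passed at an adjusted p under 0.05. Serpinb2 changed most (3.97 and 3.42), F3 fell in both genotypes, and Plat and Tfpi passed in Has3-deficient arteries alone.

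Markers of white blood cells moved with these genes. All 8 macrophage markers rose in both genotypes; the mean of the list ran from -0.70 to -0.16 in wildtype non-ligated, from 2.19 to 2.46 in wildtype ligated, from -1.23 to -0.15 in Has3-deficient non-ligated and from 2.12 to 2.32 in Has3-deficient ligated arrays. Of 8 neutrophil markers 6 rose in each genotype, with 1 lower in Has3-deficient arteries, and the list means went from between -0.87 and -0.06 without ligation to between 1.71 and 2.59 with it. Smooth muscle contractile markers fell like F3, 7 of 8 in wildtype and 8 of 8 in Has3-deficient arteries, with list means of -0.04 to 0.50 in non-ligated and -0.77 to -0.31 in ligated arrays. Of 7 fat markers measured, 3 fell in wildtype (median -1.37) and none passed in Has3-deficient arteries (median -0.61). The fat list means overlapped, at -0.36 to 1.59 without and -1.52 to 0.12 with ligation in wildtype. Endothelial markers went both ways, 3 higher and 3 lower of 8 in each genotype, and their list means overlapped between the groups (-0.27 to 0.25). Of 6 platelet markers measured, 2 rose in wildtype (median change of the list 0.22) and 1 in Has3-deficient arteries (median -0.06). Their list means did not overlap (-0.66 to 0.20 without and 0.25 to 0.59 with ligation, over both genotypes), though most of these markers did not pass. All 5 dividing cell markers measured rose in both genotypes, with list means of -0.52 to -0.19 in non-ligated and 1.10 to 1.53 in ligated arrays. Of 6 T and NK cell markers 3 rose in wildtype and 2 in Has3-deficient arrays, and within each genotype the list means did not overlap (-0.38 to 0.07 against 0.12 to 0.23, and -0.39 to -0.02 against 0.05 to 0.21). The means of 4 lymphatic endothelial markers did not overlap either (-0.29 to 0.38 against 0.41 to 0.67), though 1 marker rose and 1 fell in wildtype and 1 rose in Has3-deficient arrays. The part of these cell types in the changes of the members was not tested, and which markers were absent cannot be read from centred values.

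**Figure D3:**
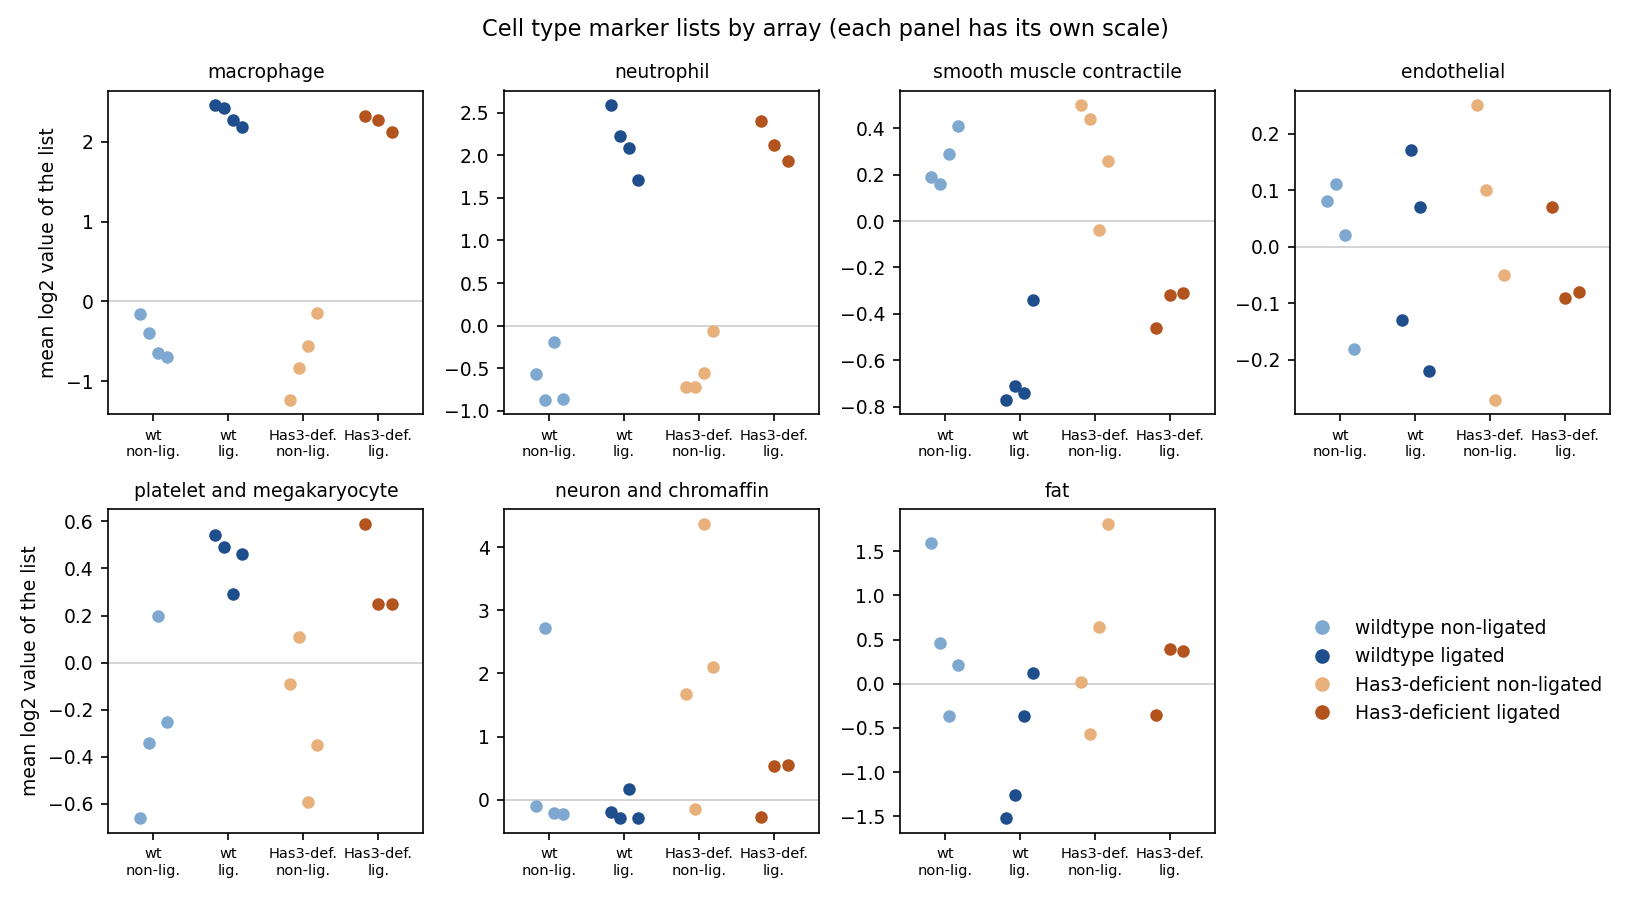
Mean log2 value of each cell type marker list (vertical axis, own scale in each panel) on each of the 15 arrays, by group. Macrophage and neutrophil means are at 1.71 or above on every ligated array and below 0 on every non-ligated one, and the neuron and chromaffin list reaches 4.37 on 1 Has3-deficient non-ligated array.

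Between the genotypes no member passed in either artery state. In ligated arteries 0 of the 7 members and 0% of all genes passed with limma (910 genes, 4.1%, had an unadjusted p under 0.05). In non-ligated arteries 0 of 7 members passed, against 0.0857% of all genes (19 genes, with 2979, or 13.4%, at an unadjusted p under 0.05). That count of 19 depended on single arrays: it was 280 without Has3-deficient non-ligated array 4, 0 on leaving out any 1 of arrays 2 and 3 of either genotype, 9 and 12 without wildtype arrays 1 and 4, and 15 without Has3-deficient array 1. For the members it was 0 of 7 each time.

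In non-ligated arteries Plat and Tfpi were lower in every Has3-deficient array than in every wildtype one, a separation seen in 6.22% of all genes. The fibroblast marker mean separated the same groups, at -0.02 to 0.14 in wildtype and -0.21 to -0.06 in Has3-deficient non-ligated arrays (median difference of the 6 markers -0.28, none past the threshold), and its part in these differences was not tested. Plat differed by -0.36 ± 0.08 log2 units (95% interval -0.53 to -0.18, unadjusted p = 0.000701, adjusted p = 0.0886 by limma) and Tfpi by -0.35 ± 0.12 (-0.60 to -0.11, adjusted p = 0.203 by limma). Leaving out 1 array at a time gave -0.39 to -0.32 for Plat and -0.40 to -0.25 for Tfpi, with adjusted p from 0.0857 to 0.205 and from 0.145 to 0.422. Plau was at -0.32 ± 0.13 (-0.60 to -0.04, adjusted p = 0.303) and F3 at -0.24 ± 0.12 (-0.50 to 0.02, adjusted p = 0.41), with arrays that overlapped. Plaur (0.13, -0.22 to 0.49), Serpinb2 (0.11, -0.45 to 0.67) and Tfpi2 (-0.11, -0.28 to 0.06) had intervals across 0. The sign of the Serpinb2 difference rested on Has3-deficient array 3, without which it was -0.16. Without the 3 arrays high in neuronal markers Plat was at -0.29 and Tfpi at -0.34 (adjusted p = 0.207 each), and F3 at -0.11.

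In ligated arteries Tfpi2 was the 1 member whose arrays did not overlap between the genotypes, as did 6.90% of all genes. It differed by -0.30 ± 0.09 (95% interval -0.49 to -0.12, unadjusted p = 0.00348, adjusted p = 1 by limma). With quantile normalization the Tfpi2 difference was -0.14, and over all alternatives it ran from -0.35 to -0.14. Serpinb2 was at -0.43 ± 0.28 with a wide interval, -1.04 to 0.18. The other 5 members lay close to 0, from -0.11 for Tfpi to 0.16 for F3, with interval bounds between -0.39 and 0.44.

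**Figure D4:**
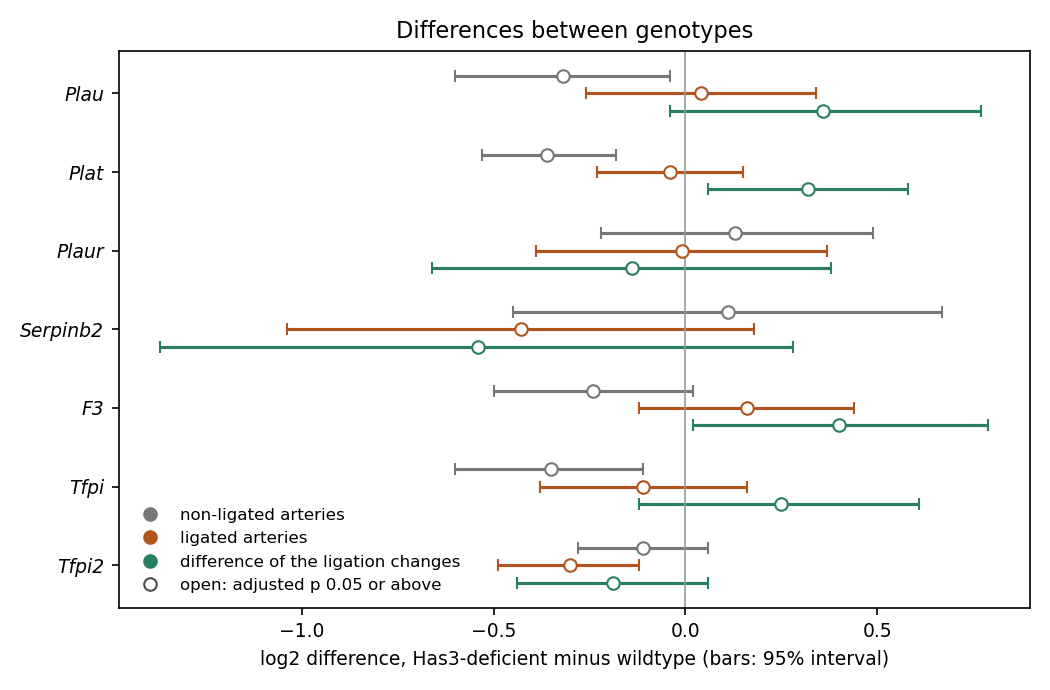
Log2 difference of each member between the genotypes (Has3-deficient minus wildtype, horizontal axis) in non-ligated and in ligated arteries, and the difference of the ligation changes, with 95% intervals from limma. All points are open, since none passed at an adjusted p under 0.05; the intervals that leave out 0 are those of Plau, Plat and Tfpi in non-ligated arteries, of Tfpi2 in ligated arteries, and of Plat and F3 for the difference of the ligation changes.

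The ligation changes themselves were compared between the genotypes by the interaction of ligation and genotype. No member and 0% of all genes passed with limma (1802 genes, 8.12%, had an unadjusted p under 0.05). Plat (0.32 ± 0.12, 95% interval 0.06 to 0.58, unadjusted p = 0.0199, adjusted p = 0.532) and F3 (0.40 ± 0.18, 0.02 to 0.79, unadjusted p = 0.0396, adjusted p = 0.599) were the members with an unadjusted p under 0.05. The change of Plau was larger in Has3-deficient arteries by 0.36 (-0.04 to 0.77) and the difference for Serpinb2 was -0.54 (-1.37 to 0.28), neither past the threshold. Plat and Tfpi therefore passed in Has3-deficient arteries and not in wildtype without a difference between their responses having been shown.

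Genes around the members were taken from 5 lists, written with earlier results of these data known, of which 68 genes were measured. Over all genes 13.2% rose and 14.6% fell in wildtype, and 10.2% rose and 8.08% fell in Has3-deficient arteries. Substrates and targets of plasmin and urokinase had the most rises: 11 of 18 rose and 2 fell in each genotype, with medians of 0.75 in wildtype and 0.93 in Has3-deficient arteries (all genes 0.01 and -0.03). Mmp12, macrophage elastase, rose by 4.93 ± 0.54 log2 units in wildtype and 4.44 ± 0.58 in Has3-deficient arteries, and the collagenase Mmp13 by 3.78 ± 0.16 and 3.52 ± 0.17. Thbs1, a matrix glycoprotein that can activate latent transforming growth factor beta, rose by 3.56 ± 0.22 and 2.85 ± 0.23, and the gelatinase Mmp9 by 2.54 ± 0.25 and 2.82 ± 0.27. The fibrinogen genes Fga, Fgb and Fgg, whose product is the main substrate of plasmin in clots, did not pass (-0.04 to -0.01 in wildtype).

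The receptors and surface binding partners split. In wildtype arteries 7 of 18 rose and 6 fell (median 0.29), and in Has3-deficient arteries 6 rose and 3 fell (median 0.19). Itgb2 and Itgam, the subunits of the leukocyte integrin Mac-1, which binds the urokinase receptor, rose by 3.73 ± 0.24 and 3.62 ± 0.24 in wildtype and by 3.85 ± 0.26 and 3.83 ± 0.26 in Has3-deficient arteries. Itgam is also among the macrophage markers. Fpr2, a formyl peptide receptor, rose by 2.55 ± 0.28 and 2.31 ± 0.30. Vldlr, a receptor that takes up complexes of proteases with serpins, fell by 1.62 ± 0.21 and 1.12 ± 0.23. Anxa2, which binds plasminogen and tissue plasminogen activator on cells, rose by 0.79 and 0.74.

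The list of plasminogen and inhibitors also holds the metalloproteinase inhibitors Timp1 and Timp2, and most of its genes did not pass. Of 10 measured genes 1 rose and 2 fell in wildtype (median 0.03), and 1 rose and 1 fell in Has3-deficient arteries (median 0.03). Apart from Timp1 and Timp2, only Serpini1 passed. Plg, which encodes plasminogen and is made chiefly in liver, did not pass, at 0.17 in wildtype and 0.09 in Has3-deficient arteries. Timp1, an inhibitor of metalloproteinases, rose by 2.86 ± 0.14 and 2.57 ± 0.16. Serpini1 (neuroserpin), an inhibitor of tissue plasminogen activator, fell by 1.37 ± 0.22 and 1.21 ± 0.23. Timp2 fell by 0.22 ± 0.07 in wildtype (adjusted p = 0.0246 by limma), and the call was lost without wildtype non-ligated array 2 (-0.17) or ligated array 1 (-0.18).

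Of 11 coagulation factors measured, 5 rose and 0 fell in wildtype (median 0.16), and 3 rose and 0 fell in Has3-deficient arteries (median -0.03). F7, the partner of tissue factor, rose by 3.33 ± 0.18 and 3.23 ± 0.20 log2 units, and F10, its substrate, by 2.68 ± 0.22 and 2.62 ± 0.24, while F3 fell. F5, the cofactor of factor X, rose by 1.20 ± 0.20 and 1.71 ± 0.21. F9 rose in wildtype by 0.29 ± 0.05 and was at -0.03 ± 0.06 in Has3-deficient arteries, a difference of responses that did not pass, as for all genes.

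Of the thrombin receptors and anticoagulants 1 of 11 rose and 2 fell in wildtype, and 2 rose and 1 fell in Has3-deficient arteries (median 0.02 in each). These counts, and those of the list of plasminogen and inhibitors, are close to the shares over all genes. Thbd (thrombomodulin), which turns thrombin to the activation of protein C, fell by 0.98 ± 0.09 and 0.60 ± 0.09. Procr, the endothelial receptor of protein C, rose by 0.29 ± 0.09 in wildtype and 0.62 ± 0.10 in Has3-deficient arteries. Leaving out any 1 of non-ligated arrays 2 (0.27) and 4 (0.24) and ligated arrays 1 (0.27), 2 (0.25) and 4 (0.29) ended the wildtype call of Procr. F2r, the main thrombin receptor, fell by 0.48 ± 0.15 in wildtype and was at -0.21 ± 0.16 in Has3-deficient arteries; leaving out any 1 of non-ligated arrays 3 (-0.42) and 4 (-0.41) and ligated arrays 1 (-0.47) and 3 (-0.41) ended its wildtype call. None of the 68 genes passed between the genotypes or in the interaction.

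**Figure D5:**
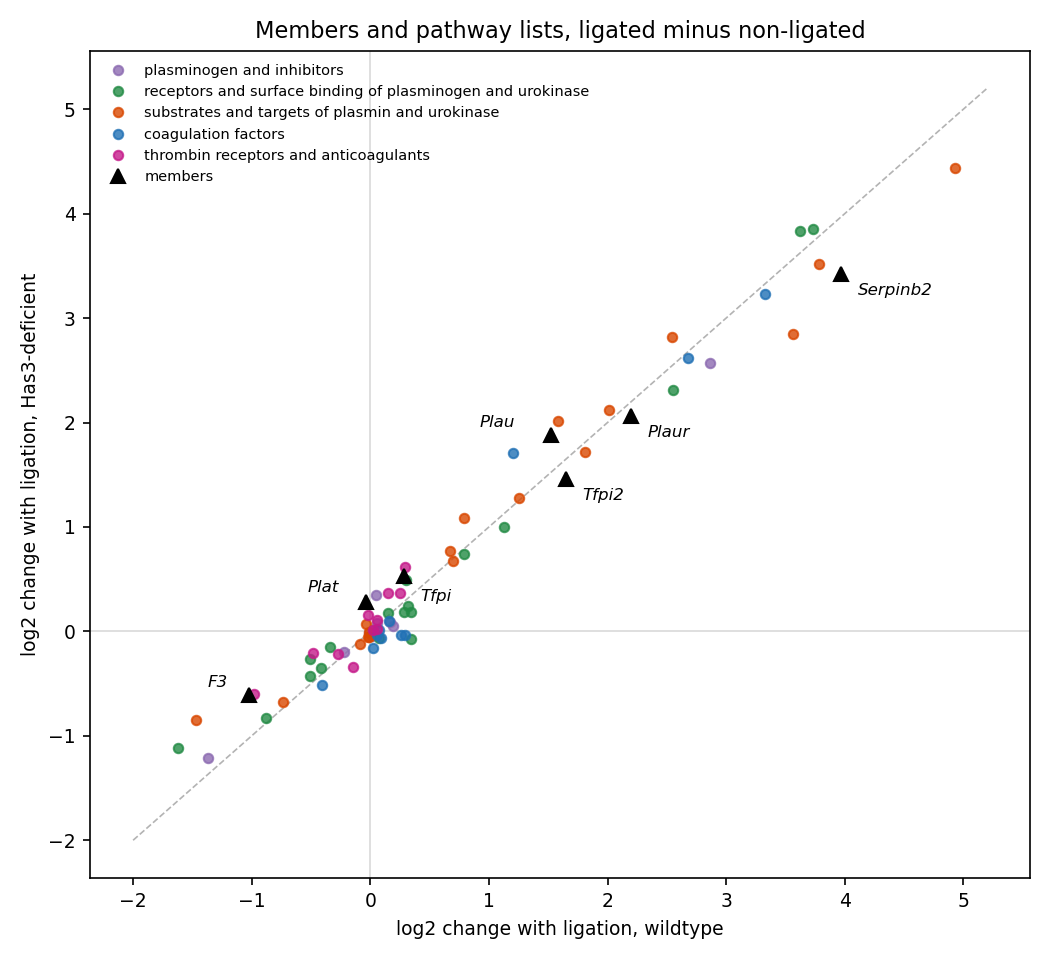
Log2 change with ligation in wildtype (horizontal axis) and in Has3-deficient arteries (vertical axis) of the 7 members (triangles) and the 68 pathway genes (circles, coloured by list), with a dashed line of equal change. F3 and Thbd lie together in the lower left, and Serpinb2 lies among the integrin, metalloproteinase and F7 genes in the upper right.

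The genes most like each member were found by Pearson correlation over the 15 arrays, leaving out predicted genes. Since ligated and non-ligated arrays lie far apart for most of these genes, the values mainly describe that split. Plau was most like Tbxas1 (r = 0.990), Lpxn (0.989) and Dock2 (0.988). Plaur was most like Itgal (0.990), Timp1 and Stac2 (both 0.989), and Serpinb2 like Neurl3 (0.992), Nfkbie (0.991), a feedback inhibitor of NF-kB, and Ptpre (0.990). Tfpi2 was most like Pik3r5 (0.989), the hyaluronan receptor Cd44 and Apbb1ip (both 0.987). Plat, which did not follow the split in wildtype arteries, was most like Lrif1 (0.885), Pdgfra (0.880), a marker of fibroblasts, and Jmjd1c (0.852). F3 was most like Rab11fip2 (0.977), Vldlr (0.969), from the receptor list above, and Pcolce2 (0.968), and Tfpi like Eif2ak2 (0.950), Capza2 (0.947) and Ifih1 (0.941), of which Eif2ak2 and Ifih1 sense double-stranded RNA.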

How the data were processed

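The series holds 15 arrays of carotid artery RNA, each from 100 ng amplified and labelled with an Affymetrix kit, per the labels. Values are log2, as the authors deposited them for 33793 probe sets, with a median of 0 in each row; base 2 was inferred from their range, and normalization and software: not given in the sources used here. With 3 or 4 arrays a group, array number limits precision. The platform annotation gave 23521 probe sets 1 symbol, 1814 several and 8458 none; means per gene gave 22180 genes, named through RefSeq genes of GRCm38.p6. The 4 groups were fitted across all genes in 1 model with limma 3.58.1 (R 4.3.3) and empirical Bayes moderation, without a replicate block, and p-values were adjusted by Benjamini-Hochberg over all genes. The fit was tested on simulated data.

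The members, pathway lists and marker lists were chosen with earlier results of these data known. All members were named; of each pathway list up to 4 genes were named, those with the largest change among genes past the threshold in wildtype ligation. Anxa2, Plg, Fga, Fgb and Fgg were added after their values were seen. For each member the 3 most correlated named genes were given. The alternatives were quantile normalization, a common array median, array weights, a robust prior, the probe set with the largest SD, only the groups compared, replicate number as a block and leaving out each array. Leaving out the 3 arrays high in neuronal markers was added after seeing the data.

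Same-numbered wildtype arrays deviated from their group means with correlations of 0.03, 0.05, 0.10 and 0.16, and non-ligated arrays of both genotypes with -0.40 to -0.23, so the numbers were not taken to pair samples. No 2 arrays were identical.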

Additional observations from a re-analysis of the deposited data

Results flagged for a closer look

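Serpinb2 in wildtype non-ligated array 2 was at -0.60, while the other 3 arrays of the group lay between -1.06 and -1.01; the gap is 0.895 of the group's range, above Dixon's critical value for 4 samples. Tfpi in wildtype ligated array 3 was at 0.53, while the others lay between 0.04 and 0.07 (gap 0.933 of the range). Of 21 combinations of member and group of 4 arrays 2 stood out in this way, and chance gives about 1 in 20.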

How the results depend on the processing

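The wildtype calls of Plau, Plaur, Serpinb2, F3 and Tfpi2 held in 16 of 16 alternatives, and the Has3-deficient calls of Plau, Plaur, Serpinb2 and Tfpi2 in 15 of 15. Over these settings Serpinb2 ranged from 3.33 to 4.13 in wildtype. No member passed between the genotypes or in the interaction under any alternative.

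With replicate number as a block, the Has3-deficient ligation comparison, whose groups share 1 number, had 1535 genes (4055 without it) and 4 of 7 members past the threshold; Plat (0.18, adjusted p = 0.59), F3 (-0.57, 0.126) and Tfpi (0.37, 0.472) did not pass. Of the named pathway genes, Serpini1 (-1.34, 0.063), Vldlr (-1.24, 0.0647), Mmp12 (4.18, 0.0741) and Procr (0.50, 0.137) did not pass there either, nor did Timp2 (-0.22, 0.0598), F2r (-0.48, 0.0542) and Procr (0.29, 0.0657) in wildtype. The block also gave 0 genes between the genotypes in non-ligated arteries, and turned the sign of Plaur between the genotypes in ligated arteries (0.43) and in the interaction (0.30). The count of genes in non-ligated arteries, 19, was 9 with array weights, 7 with the probe set of largest SD, 0 with only the groups compared, 0 to 280 leaving out 1 array, and 267 without the 3 arrays high in neuronal markers. In ligated arteries 1 gene passed with array weights and 1 with only the groups compared.

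Other signs that turned belong to differences that did not pass: with quantile normalization Plaur (0.08) and F3 (-0.02) in ligated arteries, and Serpinb2 in non-ligated arteries with array weights (-0.03) and without the 3 arrays (-0.13). Leaving out 1 array gave genotype differences of -0.07 to 0.15 for Plau, -0.15 to 0.07 for Plaur, -0.12 to 0.01 for Plat and -0.15 to 0.01 for Tfpi in ligated arteries, -0.16 to 0.23 for Serpinb2 in non-ligated ones, and a wildtype ligation change of -0.09 to 0.04 for Plat. The cause was not tested. Signal over background is unknown, so no filter on dim probe sets was run.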

Other observations

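A probe set annotated to both Serpinb10 and Serpinb2 was left out by the rule. It was at 0.01 ± 0.20 (SD, n = 4) in wildtype non-ligated, 0.33 ± 0.17 (n = 4) in wildtype ligated, -0.24 ± 0.20 (n = 4) in Has3-deficient non-ligated and 0.15 ± 0.19 (n = 3) in Has3-deficient ligated arrays, a much smaller spread between groups than that of the probe set annotated to Serpinb2 alone.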
